A study of Macaca mulatta with 24 samples.

Results

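NRF2 is the transcription factor that turns on much of a cell's defence against oxidants, and catalase, superoxide dismutases and peroxiredoxins remove the superoxide and peroxide themselves. The genes described here are 10 genes of this system, chosen by symbol as the factor (NFE2L2), its inhibitor (KEAP1), the quinone reductase NQO1, the glutathione synthesis subunits GCLC and GCLM, the thioredoxin reductase TXNRD1, the peroxiredoxin PRDX1, the superoxide dismutases SOD1 and SOD2, and catalase (CAT). Of the 32386 genes in the count table, 9 of the 10 had a row under their identifier, and all 9 passed the filter on low counts that left 15207 genes for testing. SOD2 was not analysed here, since the identifier paired with its symbol had no row.

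In an unstressed cell, KEAP1 holds NRF2 and hands it to a CUL3 and RBX1 ubiquitin ligase for degradation. Oxidants and electrophiles modify cysteines of KEAP1, newly made NRF2 then escapes degradation, pairs with a small MAF protein and binds antioxidant response elements near genes such as NQO1, GCLC, GCLM and TXNRD1. Much of this control acts on the NRF2 protein, which RNA counts do not measure. In adipose tissue, mitochondrial respiration, peroxisomal fat oxidation and the NADPH oxidases of immune cells are among the known sources of superoxide and peroxide.

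The RNA came from omental (visceral) white adipose tissue (WAT) biopsies of 24 young adult female rhesus macaques, 6 in each of 4 groups, whose age the labels give as 4 years, while the study's methods give a higher age at biopsy. The controls (C) had cholesterol implants and ate monkey chow, the T animals had testosterone implants and chow, the WSD animals had cholesterol implants and a high-fat Western-style diet, and the T+WSD animals had testosterone implants and that diet. Treatment had lasted 3 years, each library was 1 animal, and the testosterone implants served as a model of hyperandrogenemia. Comparisons with C asked what each treatment did, those of T+WSD with WSD or T what was added by combining them, and the interaction whether the change with testosterone differed between diets.

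The libraries held between 6899185 and 28270776 counts in all, with the median at 20630512.5. The 9 genes together took 0.108% to 0.177% of the counts in C and 0.139% to 0.156% in T+WSD, where counts of the gene that defines the batch below were left out of the total. In 8 libraries, 2 in each group, the single gene ENSMMUG00000038258 took 9.92% to 54.7% of the counts, against 0.879% to 2.51% in the other 16, and these 8 are called the library batch. The labels name no batch, so this name stands only for that share of counts. C replicate 1 also stood apart, with a mean log2 level of the adipocyte markers of 7.15 against 9.45 to 10.4 in the other 5 controls and the highest mesothelial mean of all 24 libraries, at 8.22. Levels are in CPM (counts scaled to a library size of 1000000) on library sizes normalized by the trimmed mean of M values (TMM), and they are compared between groups, not between genes, because no gene lengths were used. Fold changes and adjusted p values are from edgeR's quasi-likelihood test of all 4 groups in 1 fit, a gene is said to pass at an adjusted p under 0.05, and a gene that also changed by more than 1.5-fold is called a differentially expressed gene (DEG).

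In T+WSD animals, NQO1 and GCLC rose and NFE2L2 and KEAP1 fell against C, so that 4 of the 9 genes passed, while 17.1% of all tested genes passed in this comparison, 7.18% higher and 9.94% lower. GCLM, TXNRD1, PRDX1, SOD1 and CAT did not pass. The median log2 fold change of the 9 genes was 0.03, beside -0.04 over all tested genes. Of the 4 genes, NQO1 alone was a DEG, a call that 10% of all tested genes received. NQO1 and GCLC lay above every control in all 6 T+WSD libraries and KEAP1 below, beside 3.49% of all tested genes without overlap above and 4.12% below.

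**Figure D1:**
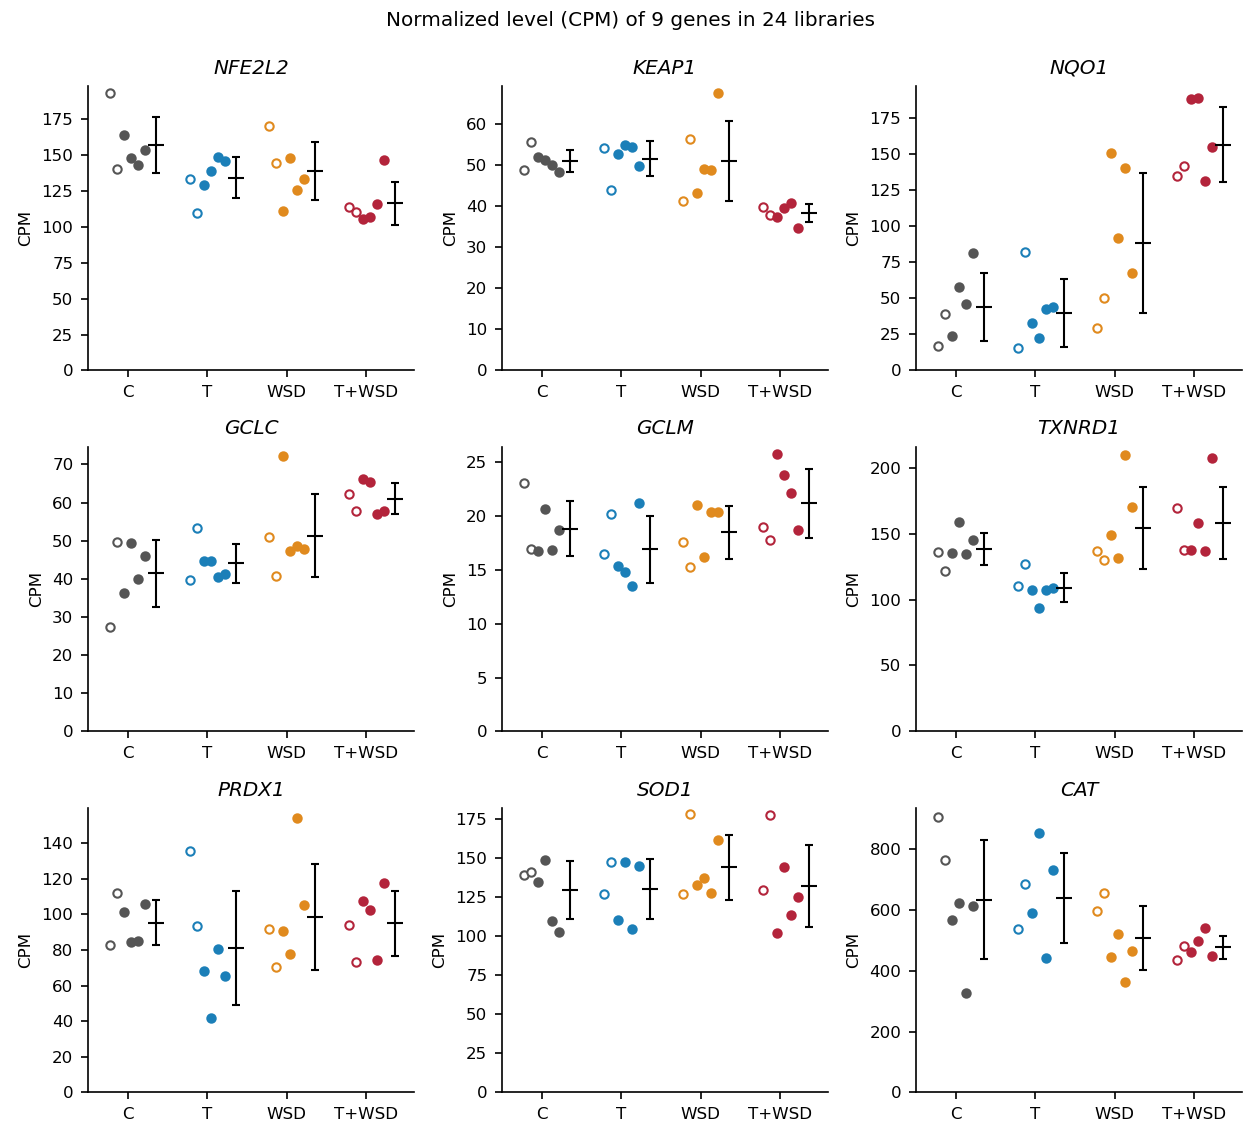
Normalized level (CPM, linear axes from 0) of the 9 genes in each of the 24 libraries, by group. Each point is 1 animal, open points are the 8 libraries of the batch, and the black bars are the group mean ± SD (n = 6); the T+WSD points of NQO1, from 131.5 to 188 CPM, sit above every C and T point, and those of KEAP1, from 34.6 to 40.7, sit below every point of the other 3 groups.

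NFE2L2 (ENSMMUG00000001861), which encodes NRF2, had lowest, median and highest levels of 140.5, 151, and 193 CPM in C and 105, 112, and 146 CPM in T+WSD. The T+WSD levels were lower in 5 of 6 libraries than in any control, and the sixth, T+WSD replicate 12, lay within the control range. The group means were 157 ± 19.6 CPM in C and 116 ± 15.1 CPM in T+WSD (SD, n = 6), a log2 fold change of -0.43 (SE 0.11, edgeR adjusted p = 0.0106). The T and WSD groups lay between them, with medians of 136 and 139 CPM.

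KEAP1 (ENSMMUG00000005218), the sensor that binds NRF2, had levels of 48.3 to 55.65 CPM in C with a median of 50.6, and of 34.6 to 40.7 CPM in T+WSD with a median of 38.65. The groups did not overlap, and KEAP1 had the smallest coefficient of variation of the 9 genes in both of them, at 5.22% in C and 5.60% in T+WSD. The means were 51.0 ± 2.66 and 38.3 ± 2.15 CPM (SD, n = 6), and the log2 fold change was -0.41 (SE 0.09, edgeR adjusted p = 0.00717). With both regulators down by a like amount, the count ratio of NFE2L2 to KEAP1 within a library was 3.10 ± 0.487 in C and 3.06 ± 0.571 in T+WSD (SD, n = 6). Its log2 difference was -0.02 (SE 0.13), with p = 0.861 in an exact two-sided permutation test over 924 splits. T differed more from C, at 2.61 ± 0.197 and a log2 difference of -0.24 (SE 0.10, exact permutation p = 0.0325, adjusted p = 0.0974 over 6 ratio tests).

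NQO1 (ENSMMUG00000019684) encodes a cytosolic enzyme that reduces quinones to hydroquinones and is a standard readout of NRF2 activity. In C its lowest, median and highest levels were 16.9, 42.6 and 81.3 CPM, and in T+WSD they were 131.5, 148 and 188 CPM. The lowest T+WSD library stood well above the highest control. The means were 44.1 ± 23.4 CPM in C and 156 ± 25.7 CPM in T+WSD (SD, n = 6), a log2 fold change of 1.83 (SE 0.41, edgeR adjusted p = 0.00677) or 3.55-fold, with a 95% interval of 1.96 to 6.40. The SDs were alike while the mean rose, so that the coefficient of variation was 53.2% in C and 16.5% in T+WSD.

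GCLC (ENSMMUG00000008684) and GCLM (ENSMMUG00000013857) are the catalytic and modifier subunits of glutamate-cysteine ligase, the enzyme of the first and rate-limiting step of glutathione synthesis. GCLC ran from 27.3 to 49.7 CPM in C with a median of 43.05, and from 57.1 to 66.1 CPM in T+WSD with a median of 60.0. The groups did not overlap, and the log2 fold change was 0.56 (SE 0.13, edgeR adjusted p = 0.00883), which as 1.48-fold fell short of the DEG threshold. GCLM ran from 16.8 to 23.1 CPM in C with a median of 17.8, and from 17.8 to 25.8 CPM in T+WSD with a median of 20.6. These ranges overlapped for most of their length, and the log2 fold change of 0.18 (SE 0.13, edgeR adjusted p = 0.351) did not pass.

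The count ratio of GCLC to GCLM within a library, which needs no normalization between libraries, averaged 2.25 ± 0.583 in controls and 2.92 ± 0.326 in T+WSD animals (SD, n = 6), with means of 2.66 ± 0.420 for T and 2.77 ± 0.408 for WSD. T+WSD exceeded C by 0.42 on the log2 scale (SE 0.20), with p = 0.0195 in an exact two-sided permutation test, which became 0.0974 after Benjamini-Hochberg adjustment over the 6 ratio tests. C replicate 1, a library of the batch, had the lowest control ratio, 1.185 (486 counts of GCLC and 410 of GCLM), beside a control median of 2.38. The difference without this library alone was not tested. In the 16 libraries outside the batch the difference was 0.23 with an exact permutation p = 0.0286, the smallest that 70 splits allow. The difference in response of the 2 subunits was therefore not past the threshold after adjustment. Both ratios were chosen after the values were seen.

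TXNRD1 (ENSMMUG00000012091), the cytosolic selenoenzyme that keeps thioredoxin reduced, had a median of 135.5 CPM in C (122 to 159) and 148 CPM in T+WSD (137 to 207). The ranges overlapped, with a log2 fold change of 0.19 (SE 0.12, edgeR adjusted p = 0.282). PRDX1 (ENSMMUG00000006221), a peroxiredoxin that thioredoxin recycles after it has reduced peroxide, had a median of 93.0 CPM in C (82.8 to 112) and 98.2 CPM in T+WSD (73.5 to 118). Its groups overlapped fully, and the log2 fold change was -0.00 (SE 0.21, edgeR adjusted p = 0.997), with a 95% interval of the fold of 0.733 to 1.36.

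SOD1 (ENSMMUG00000001711), the cytosolic copper and zinc enzyme that turns superoxide into peroxide, had medians of 137 CPM in C (103 to 149) and 127.5 CPM in T+WSD (102 to 178). The groups overlapped, with a log2 fold change of 0.03 (SE 0.13, edgeR adjusted p = 0.920) and a 95% interval of the fold of 0.842 to 1.23. Primate genomes hold processed copies of genes such as PRDX1 and SOD1, and how reads matching several places were counted is not given in the sources used here, so both sets of values are uncertain to that extent.

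CAT (ENSMMUG00000002429), the peroxisomal enzyme that breaks down hydrogen peroxide, had a lowest, median and highest level of 328, 617.5 and 906 CPM in C and of 436.5, 471 and 541 CPM in T+WSD. The T+WSD libraries lay inside the control range, gathered in its lower part. The log2 fold change was -0.41 (SE 0.19, edgeR adjusted p = 0.139), near that of KEAP1 but with a coefficient of variation in C of 30.8%, against 7.99% in T+WSD. Without C replicate 5, the lowest control, CAT passed at -0.54 (edgeR adjusted p = 0.0245), and without C replicate 1, the highest, it was -0.26 (adjusted p = 0.392).

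**Figure D2:**
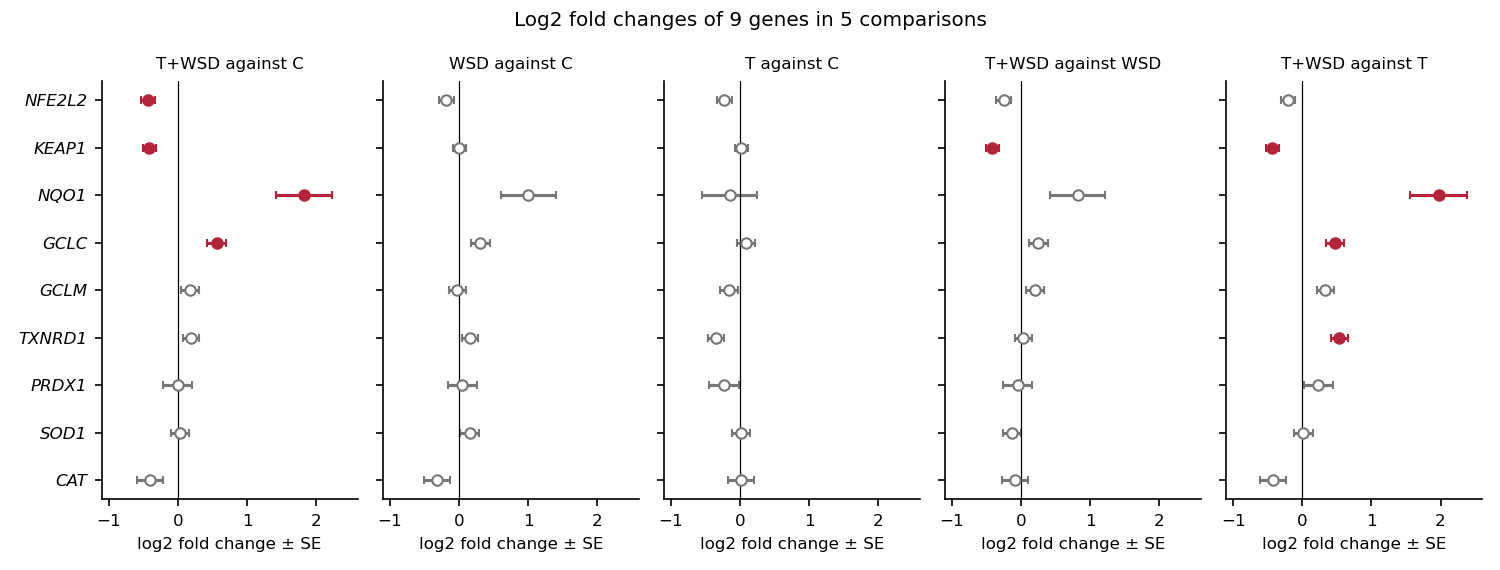
Log2 fold changes (edgeR, ± SE) of the 9 genes in 5 comparisons among the 4 groups of 6 libraries. Filled red points passed at an adjusted p under 0.05 and open grey points did not; NQO1 has the highest value where T+WSD is compared with C (1.83) or T (1.98), and no gene is filled where WSD or T is compared with C.

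The 4 changes in T+WSD held in all 24 fits that left out 1 library, where the highest adjusted p was 0.0357 for NFE2L2, 0.0197 for KEAP1, 0.0197 for NQO1 and 0.0245 for GCLC. These highest values came from fits without a C or T+WSD animal. Fits without a T or WSD animal bear on this comparison only through the fit shared by all 4 groups. Without C replicate 1 the log2 fold changes were -0.35, -0.41, 1.68 and 0.49. In the 16 libraries outside the batch, where 84 of all genes passed in this comparison, only NQO1 of the 9 still did (log2 fold change 1.69, edgeR adjusted p = 0.0474). The sizes there were alike for KEAP1 at -0.39 (adjusted p = 0.0819), GCLC at 0.54 (0.0728) and NFE2L2 at -0.34 (0.111).

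Markers of several cell types differed between T+WSD and C, where 7.18% of all tested genes passed as higher and 9.94% as lower. Of 9 mesothelial markers, genes of the cell layer that covers the omentum, 8 were lower in T+WSD than in C, and their summed level ran from 2722 to 38890 CPM in C and from 235.5 to 3070 CPM in T+WSD. The 7 adipocyte markers summed to 2661 to 13850 CPM in C and 13510 to 20920 CPM in T+WSD, with LEP and FABP4 past the test, and 4 of 7 endothelial markers were higher. None of the 7 macrophage markers passed, while among 5 markers of lipid-associated macrophages GPNMB, SPP1 and CHIT1 were higher and CD9 was lower. In the other lists, 2 of 5 neutrophil markers and 1 of 4 erythroid markers were lower. Of 6 smooth muscle and pericyte markers 2 were higher, and of 7 fibroblast markers 1 was. None of the 3 T and NK cell or 3 B and plasma cell markers passed. No marker of these lists was at 0 in all libraries of a group. In bulk tissue, fewer cells of a type and less RNA per cell cannot be told apart.

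With the mesothelial list's mean as a covariate, none of the 9 genes and 0 of all 15207 tested genes passed by edgeR in T+WSD against C, with 488 at an unadjusted p under 0.05. The log2 fold changes of the 4 genes in that fit kept their signs, at -0.23 for NFE2L2, -0.30 for KEAP1, 1.36 for NQO1 and 0.28 for GCLC. The mesothelial means of C (6.76 to 8.22 on the log2 scale) and T+WSD (3.11 to 5.82) did not overlap, so that treatment and mesothelial content cannot be told apart between these groups.

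**Figure D3:**
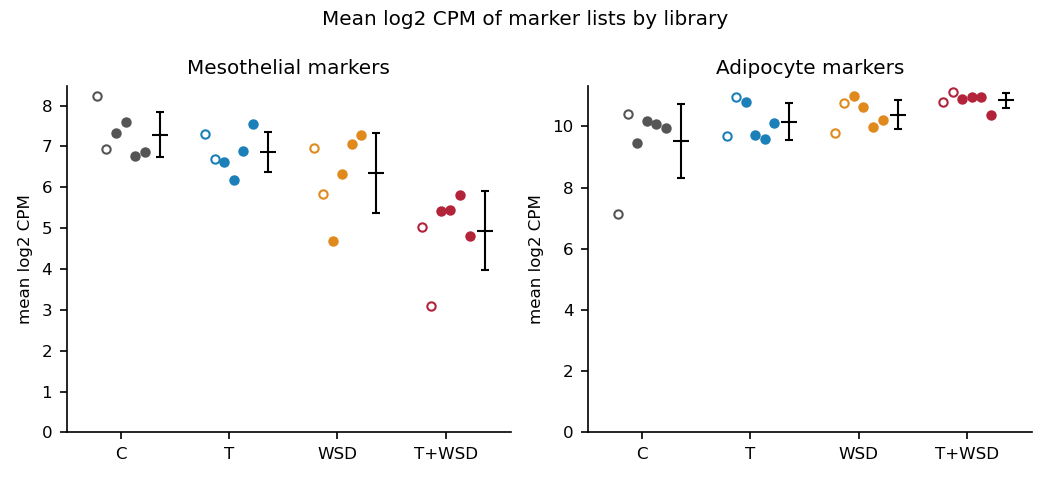
Mean log2 CPM of the mesothelial markers (left) and the adipocyte markers (right) in each library, by group. Points are animals, open points the 8 libraries of the batch and black bars the mean ± SD (n = 6); the mesothelial mean of T+WSD, from 3.11 to 5.82, lies below all controls, and the control with the lowest adipocyte mean, at 7.15, is C replicate 1.

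The diet alone raised none of the 9 genes past the edgeR test, where 0% of all tested genes passed. That 0% depends on the test, since DESeq2 called 188 genes higher and 201 lower of 15027. An unadjusted edgeR p under 0.05 was found for 18.5% of all tested genes and for 2 of the 9, NQO1 and GCLC. NQO1 had the largest difference, with levels of 29.6 to 150 CPM in WSD and a median of 79.4, and 3 of 6 libraries were above every control. Its log2 fold change was 1.01 (SE 0.40, edgeR adjusted p = 0.196), and DESeq2 gave an adjusted p of 0.117. The pair of WSD libraries from the batch had its lowest levels, 29.6 and 50.4 CPM, while the other 4 lay between 67.2 and 150 CPM against 23.5 to 81.3 CPM in the 4 controls outside the batch. Within these 16 libraries the log2 fold change was 1.12 (adjusted p = 0.280).

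GCLC moved in the same direction as NQO1 with the diet, from a median of 43.05 CPM in C to 48.2 CPM in WSD (40.65 to 72.3). The groups overlapped, and the log2 fold change of 0.31 (SE 0.13, edgeR adjusted p = 0.220) did not pass. KEAP1 had a log2 fold change of 0.00 (SE 0.09, adjusted p = 0.994) with the diet, NFE2L2 of -0.18 (0.361) and CAT of -0.32 (0.365). KEAP1 varied more between WSD animals (41.1 to 67.6 CPM) than between controls.

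Testosterone alone changed none of the 9 genes past the test, where 0% of all tested genes passed by edgeR and 8.63% had an unadjusted p under 0.05, as did 2 of the 9, TXNRD1 and NFE2L2. TXNRD1 came nearest, with levels of 93.9 to 127 CPM and a median of 108 in T, and 5 of 6 T libraries were below every control. Its log2 fold change was -0.35 (SE 0.12, edgeR adjusted p = 0.523). NFE2L2 followed at -0.23 (SE 0.11, adjusted p = 0.571), with 4 of 6 libraries below every control. NQO1 ranged from 15.2 to 81.7 CPM in T, as widely as in C, with a log2 fold change of -0.15 (SE 0.40, adjusted p = 0.945). DESeq2 also called none of the 9 genes with either treatment alone. With testosterone alone it called 4 genes higher and 7 lower of 24157.

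Where T+WSD was set against T, which differs from it by the diet, NQO1, GCLC and TXNRD1 were higher and KEAP1 was lower, 4 of 9 genes against 6.5% of all tested genes (3.3% higher and 3.2% lower). None of the 4 overlapped between the groups, a pattern seen in 2.99% of tested genes above and 3.1% below. NQO1 was 3.94-fold higher (log2 fold change 1.98, SE 0.41, edgeR adjusted p = 0.0116). TXNRD1 was 1.45-fold higher (0.54, SE 0.12, adjusted p = 0.0156), from the T median of 108 CPM to the T+WSD median of 148 CPM. KEAP1 was lower by -0.43 (SE 0.09, adjusted p = 0.0143), and GCLC was higher by 0.47 (SE 0.13, adjusted p = 0.0384), a call that was lost in 10 of the 24 fits without 1 library. Each of these 10 fits left out a T or T+WSD animal. Among the fits that did so, the GCLC call held only without T replicate 14 or T+WSD replicate 11. The remaining fits left out a C or WSD animal, which is in neither group. None of the 4 passed on total counts without TMM, where the adjusted p was 0.0867 for NQO1, 0.250 for KEAP1, 0.395 for TXNRD1 and 0.457 for GCLC. The mesothelial means of T (6.18 to 7.56 on the log2 scale) and T+WSD (3.11 to 5.82) did not overlap. Diet and mesothelial content therefore cannot be told apart between these groups.

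Where T+WSD was set against WSD, which differs from it by testosterone, KEAP1 alone of the 9 genes passed, beside 1.67% of all tested genes. Its levels were 41.1 to 67.6 CPM in WSD (median 48.9) and 34.6 to 40.7 CPM in T+WSD. These groups did not overlap, as for 1.37% of tested genes below, and the log2 fold change was -0.41 (SE 0.09, edgeR adjusted p = 0.0343). That call held in 16 of the 24 fits without 1 library, and was lost without WSD replicate 20 or 24 or any single T+WSD replicate, with an adjusted p of up to 0.0960. Among the fits that left out a WSD or T+WSD animal, the KEAP1 call held only without WSD replicate 19, 21, 22 or 23. The remaining fits where it held left out a C or T animal, which is in neither group. NQO1 had a log2 fold change of 0.82 (SE 0.40, adjusted p = 0.251) and NFE2L2 of -0.25 (SE 0.11, adjusted p = 0.186).

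None of the 9 genes passed the interaction of testosterone and diet at the adjusted p under 0.1 used for it, beside 0.809% of all tested genes, and 2 of them, KEAP1 and TXNRD1, had an unadjusted p under 0.05, beside 13.5% of all tested genes. KEAP1 had the smallest p, with a log2 interaction of -0.43 (SE 0.13, edgeR adjusted p = 0.154). Testosterone went with a KEAP1 change of 0.02 on chow and of -0.41 on the Western-style diet. DESeq2 gave it an adjusted p of 0.0786. TXNRD1 had a log2 interaction of 0.38 (SE 0.17, adjusted p = 0.325), with testosterone changes of -0.35 on chow and 0.03 on the diet, and NQO1 one of 0.97 (SE 0.56, adjusted p = 0.471).

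The other genes of the pathway were taken from 7 lists of 99 genes, of which 84 were tested. In T+WSD against C, 6 of the 84 rose and 5 fell, or 13.1%, below the 17.1% of all tested genes. Their median log2 fold change was -0.06. Without C replicate 1, 9 of them passed, and in the 16 libraries outside the batch 1 did. With the mesothelial covariate 0 did, as did 0 of all 15207 tested genes.

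Among 11 regulators and partners of NRF2, MAFG rose and RBX1 and DPP3 fell, beside 7.18% of all tested genes higher and 9.94% lower. MAFG, a small MAF partner of NRF2, was at 15.2 to 23.5 CPM in C (median 20.9) and 25.65 to 30.5 CPM in T+WSD (median 27.2). The groups did not overlap (log2 fold change 0.44, SE 0.13, edgeR adjusted p = 0.0202). RBX1, the RING subunit of the ligase that marks NRF2 for degradation, had a log2 fold change of -0.43 (SE 0.11, adjusted p = 0.0103), and CUL3, its scaffold, one of -0.00 (SE 0.09, adjusted p = 0.984). DPP3, a peptidase that can compete with NRF2 for KEAP1, had one of -0.36 (SE 0.10, adjusted p = 0.0146) but did not pass without C replicate 1.

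Among 23 other NRF2 target genes, 4 rose and none fell, beside 7.18% of all tested genes that rose and 9.94% that fell. Of the 23 log2 fold changes, 14 were above 0, beside 45.1% over all tested genes. FTL, the light chain of the iron store ferritin, had levels of 279 to 446 CPM in C (median 342) and 541 to 850 CPM in T+WSD (median 680). The groups did not overlap, and the log2 fold change was 0.98 (SE 0.14, edgeR adjusted p = 0.00226). The ferritin heavy chain FTH1 rose by 0.65 (SE 0.16, adjusted p = 0.0118), from 115 to 200 CPM in C to 180 to 388 CPM in T+WSD. Both ferritin genes have many near-identical copies in primate genomes, so these counts are uncertain in the way given for PRDX1 and SOD1.

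The other genes of this list that rose were SRXN1, the sulfiredoxin that restores over-oxidized peroxiredoxins, and PIR, a nuclear iron-binding protein. SRXN1 had medians of 18.3 CPM in C (9.73 to 34.9) and 40.7 CPM in T+WSD (22.6 to 44.7), with a log2 fold change of 0.91 (SE 0.25, edgeR adjusted p = 0.0186). PIR had medians of 12.7 CPM (6.30 to 19.7) and 25.2 CPM (20.3 to 31.4), with a log2 fold change of 0.92 (SE 0.24, adjusted p = 0.0129), and its groups did not overlap. HMOX1, which degrades heme, had a log2 fold change of 1.10 (SE 0.45, adjusted p = 0.0925) with 2 of 6 libraries above every control. FTL was the gene of this list that passed in the 16 libraries outside the batch.

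In the lists that handle glutathione, peroxide and superoxide, 2 genes passed. These lists held 18, 2, 15 and 2 tested genes, to be read beside the 17.1% of all tested genes that passed. Of 18 genes of glutathione synthesis, reduction and transfer, GSTO1 alone passed, at -0.62 (SE 0.20, edgeR adjusted p = 0.0387), and it did not without C replicate 1. GPX3 and GPX4 did not pass, and GPX1 was listed at 0 counts in every library. Whether that 0 reflects its expression or how reads were counted was not tested. Of 15 other thioredoxin and peroxiredoxin genes, SESN1, a sestrin, rose by 0.66 (SE 0.15, adjusted p = 0.00728), from a median of 48.0 CPM in C to 79.6 CPM in T+WSD. SOD3, the extracellular superoxide dismutase, had a log2 fold change of 0.69 (SE 0.34, adjusted p = 0.168), and CCS, the copper chaperone of SOD1, one of 0.22 (SE 0.16, adjusted p = 0.353).

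Among 13 genes that make superoxide or peroxide, DUOX1 and MAOB fell, while 9.94% of all tested genes did. DUOX1, an NADPH oxidase of epithelia, was at 12.3 to 47.1 CPM in C (median 20.4) and 1.41 to 10.9 CPM in T+WSD (median 8.50), with no overlap and a log2 fold change of -1.58 (SE 0.35, edgeR adjusted p = 0.00618). MAOB, which makes peroxide while it oxidizes amines at the mitochondrial outer membrane, was at 97.0 to 184 CPM in C (median 111) and 67.3 to 76.9 CPM in T+WSD (median 72.65). Its groups did not overlap either (log2 fold change -0.74, SE 0.17, adjusted p = 0.00717). The mesothelial markers fell in the same comparison. With their mean as a covariate neither gene passed, but 0 of all 15207 tested genes did, so that fit does not single out these genes.

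**Figure D4:**
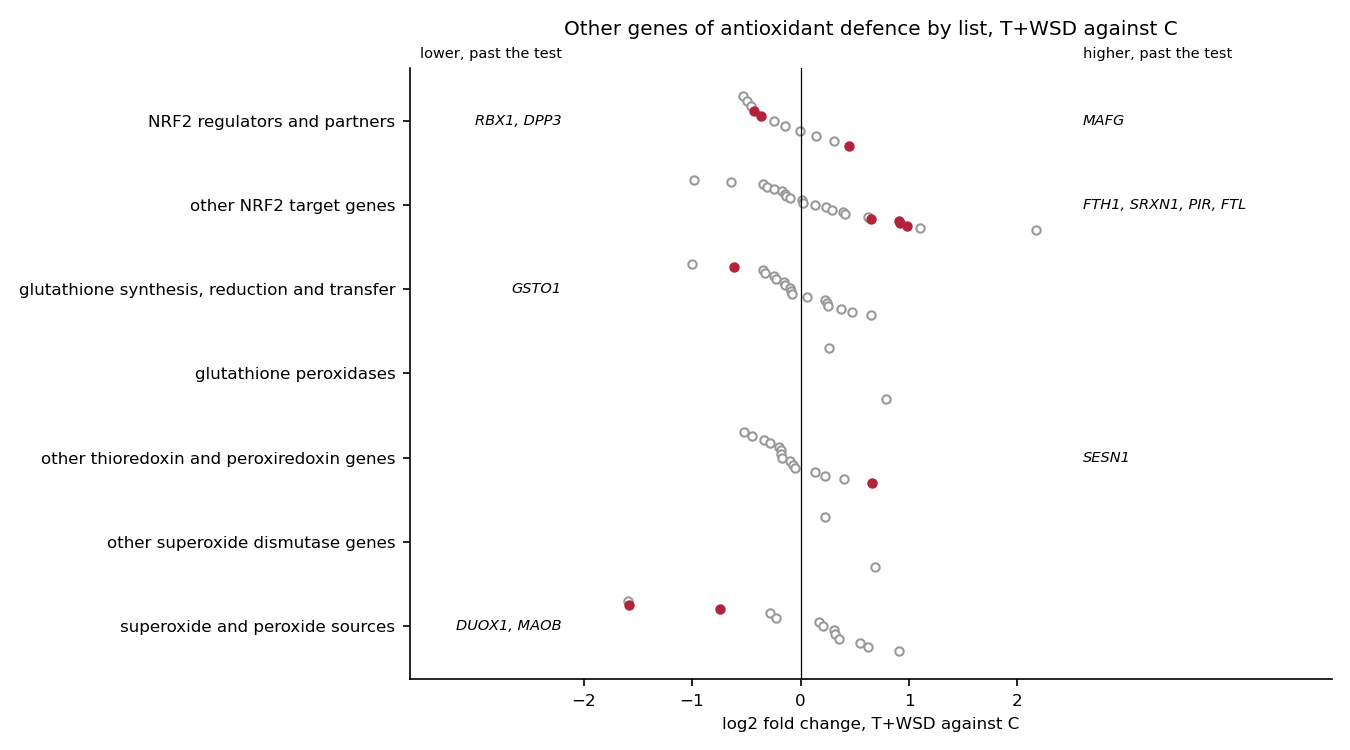
Log2 fold changes (edgeR, T+WSD against C) of the 84 tested genes of 7 lists, 1 point per gene, sorted within each list. Filled red points passed at an adjusted p under 0.05 and are named at the sides, 6 higher and 5 lower; open grey points did not pass.

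In WSD against C, T against C and the interaction, 0 of the 84 genes passed by edgeR, beside 0%, 0% and 0.809% of all tested genes. At an unadjusted edgeR p under 0.05 were 21, 6 and 17 of the 84, beside 18.5%, 8.63% and 13.5% of all tested genes. DESeq2 called 2, 0 and 2 of the 84, which were TALDO1 and GGCT for the diet and FTL and OSGIN1 for the interaction. Over all genes, DESeq2 called 188 higher and 201 lower of 15027 for the diet. For testosterone it called 4 and 7 of 24157, and for the interaction 283 and 200 of 15971. The smallest edgeR adjusted p of the 84 for the interaction was 0.111. That interaction count was 1 with at least 10 counts in every library, legacy=FALSE, upper-quartile normalization, the macrophage covariate or without C replicate 4. Without WSD replicate 21 it was 3, beside 276 higher and 251 lower of all 15324 genes. The study lists FTL among its synergistic genes. Of T+WSD against WSD, edgeR called 1 of the 84, FTL, at 0.85 (SE 0.14, adjusted p = 0.00994), beside 1.67% of all tested genes. DESeq2 called 9, of which FTL and FTH1 were higher and 7 lower, beside 387 higher and 422 lower of 16445 genes. The edgeR count there reached 9 without WSD replicate 21, 5 without C replicate 1 or WSD replicate 19, 4 without WSD replicate 22 or with legacy=FALSE, 2 without C replicate 5 or T replicate 16, and 0 in the 16 libraries, without TMM or with the mesothelial covariate. Against T, 4 were higher and 2 lower, or 7.14% beside 6.5% of all tested genes. Those higher were FTL at 0.88, FTH1 at 0.69, PIR at 1.05 and SESN1 at 0.81, and those lower were MAOB at -0.74 and GLRX2, a mitochondrial glutaredoxin, at -0.57. This count of 6 was 15 (7 higher, 8 lower) with only the T and T+WSD libraries in the fit, and 9 by DESeq2. Over all genes, the fit of only these groups called 1085 higher and 917 lower of 14565, and DESeq2 1016 and 788 of 17862. The count of 6 was 9 without C replicate 1 or T replicate 14, and 0 without TMM or with the mesothelial covariate.

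Animals of a group also differed from each other in these genes, and the deviations were compared after each group's mean log2 CPM was subtracted. Over 36 pairs of the 9 genes in 24 libraries the median Pearson r was -0.06, with 14 pairs above 0 and 22 below. NFE2L2 and GCLC had r = -0.70 (permutation p = 0.00049 within groups, adjusted p = 0.0132 over 54 relations) and Spearman's rho = -0.71 (adjusted p = 0.0113). Without the 2 libraries farthest in NFE2L2 r was -0.66, in the 16 libraries outside the batch it was -0.68 and in the 8 libraries of the batch -0.73. Animals with more NFE2L2 RNA than their group thus had less of this NRF2 target.

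NQO1 and GCLC varied together, with r = 0.65 (permutation p = 0.00344, adjusted p = 0.031) and rho = 0.58 (adjusted p = 0.0859), and r was 0.69 without the farthest pair of libraries, 0.60 in the 16 and 0.67 in the 8. NFE2L2 and NQO1 had r = -0.63 (adjusted p = 0.028) and rho = -0.53 (adjusted p = 0.112), with r = -0.64, -0.43 and -0.88 in the same 3 subsets. TXNRD1 and PRDX1, which act in the same chain, had r = 0.61 (adjusted p = 0.028) and rho = 0.63 (adjusted p = 0.0524), with r = 0.47, 0.72 and 0.50. These 4 pairs had an adjusted permutation p under 0.05 for r.

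The adipocyte markers moved with genes of these relations. Their mean log2 CPM, centred in the same way, had r = -0.70 with NFE2L2 (permutation adjusted p = 0.00918, rho = -0.69, adjusted p = 0.0113) and r = 0.72 with GCLC (adjusted p = 0.028, rho = 0.58, adjusted p = 0.0795). Leaving out the 2 libraries farthest in the adipocyte mean gave r = -0.66 and 0.50. With NQO1 their mean had r = 0.58 (adjusted p = 0.0569, rho = 0.52, adjusted p = 0.145), and 0.55 without the 2 farthest libraries, 0.355 in the 16 and 0.71 in the 8. The mesothelial mean had r = 0.35 with NFE2L2, -0.39 with GCLC (adjusted p = 0.239) and -0.26 with NQO1 (adjusted p = 0.541). The part of adipocyte content in the relations among NFE2L2, GCLC and NQO1 was not tested.

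**Figure D5:**
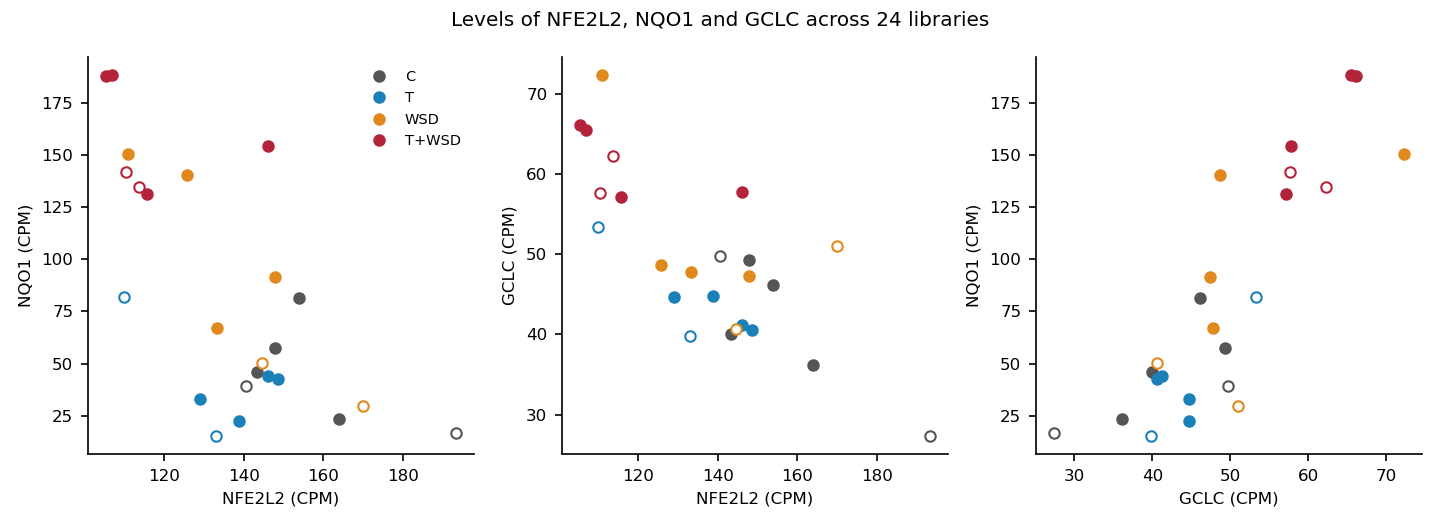
Levels (CPM, linear axes) of NFE2L2 against NQO1, NFE2L2 against GCLC and GCLC against NQO1 in 24 libraries, coloured by group, with open points for the 8 libraries of the batch. T+WSD animals, apart from 1 at 146 CPM of NFE2L2, lie at low NFE2L2 with high NQO1 and GCLC; within groups, NFE2L2 and GCLC had r = -0.70 and GCLC and NQO1 r = 0.65 on the log2 scale.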

How the data were processed

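The authors made ribosome-depleted, single-read libraries from omental WAT RNA (RIN above 8) of 24 female macaques. They named FastQC 0.11.5, Trimmomatic 0.36, STAR 2.5.2b and DESeq2 1.18.1 in their processing notes and aligned to rheMac8. The values used are the raw counts per gene that the authors deposited, with no normalization; the counting tool, its strand setting and the annotation release are not given in the sources used here. A symbol was found for 12620 tested genes, mostly in a gene name table, and 206 of these symbols came from the study's supplementary tables.

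Groups were taken from the sample labels. Counts were tested with edgeR 4.0.16 (R 4.3.3, glmQLFit with robust=TRUE and legacy=TRUE, glmQLFTest, TMM) in 1 fit of 4 groups with 20 residual degrees of freedom, where the study used DESeq2. The filter filterByExpr (minimum count 10, minimum total 15) kept 15207 genes, and Benjamini-Hochberg adjustment ran over all of them. All p values are two-sided. DESeq2 1.42.0 and other normalizations, filters, covariates and sets of libraries were alternatives, and the fits were tested on simulated data. The batch of 8 libraries was defined after the counts were seen, as those where 1 gene takes over 5% of the counts. Log2 CPM for correlations and list means used a prior count of 2, and correlations used 100000 permutations within groups.

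The 10 genes, the pathway lists and the marker lists were chosen with earlier results of these data known. Named were all of the 10 genes, the genes of each pathway list past the test in T+WSD against C (the 5 with the smallest p where there were more), and the 5 genes most like NQO1; HMOX1, CUL3, GPX1, GPX3, GPX4, SOD3, CCS, GLRX2, TALDO1, GGCT and OSGIN1 were named after their values were seen. The precision rests on 6 animals a group and on at least 63 counts per library for each of the 9 genes; intervals rest on the model and not on counting error alone.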

Additional observations from a re-analysis of the deposited data

Results flagged for a closer look

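Of 36 sets of 6 values, 1 for each of the 9 genes in each group, 3 held a library far from the others, with a gap over the group's range above Dixon's 95% critical value of 0.625, and chance gives about 1 in 20. NFE2L2 in T+WSD replicate 12 was at 146 CPM, with a gap share of 0.748, while the other 5 T+WSD libraries were near the group's median of 112 CPM. GCLC in T replicate 14 was at 53.3 CPM (gap share 0.632), in the library that also had the highest NQO1 level of its group, 81.7 CPM. GCLC in WSD replicate 21 was at 72.3 CPM (gap share 0.674), and this library too had the highest NQO1 level of its group, 150 CPM. NFE2L2 fell and GCLC rose past the test in T+WSD against C in each of the 24 fits without 1 library, the fit without T+WSD replicate 12 included. T replicate 14 and WSD replicate 21 are in neither group of that comparison, so leaving them out bears on it only through the shared fit. In T+WSD against T, GCLC still passed without T replicate 14, and in WSD against C it passed in none of these fits.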

How the results depend on the processing

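Of the 9 genes, 4 passed in T+WSD against C, and 4 to 5 did when 1 library was left out. The count was 1 in the 16 libraries outside the batch and 0 with the mesothelial mean as covariate, 1 without TMM, and 4 with DESeq2 size factors, upper-quartile normalization, both other filters, legacy=FALSE, the batch or macrophage covariate, only the groups compared, or DESeq2. In T+WSD against WSD it was 1, and 0 in the 16 libraries, with the mesothelial covariate, without TMM (KEAP1 adjusted p = 0.785) and with only the 2 groups compared in the fit, and 0 to 1 without 1 library. In T+WSD against T it was 4, 0 with the mesothelial covariate or without TMM, 3 in the 16 libraries (GCLC lost, adjusted p = 0.0526) or with no filter (GCLC lost, 0.0660), and 3 to 4 without 1 library. In the interaction it was 0, 1 by DESeq2 (KEAP1) and 0 to 1 without 1 library, where KEAP1 passed without WSD replicate 19 (edgeR adjusted p = 0.0898) or 21 (0.0680). It was 0 in WSD and in T against C in every fit run. No result changed sign past a threshold. On total counts without TMM, NQO1 alone passed in T+WSD against C, with NFE2L2 at -0.49 (adjusted p = 0.246), KEAP1 at -0.47 (0.242) and GCLC at 0.52 (0.225). The pathway count of 11 in that comparison ran from 9 to 15 without 1 library and was 2 without TMM. The ratios and correlations within the batch and the pathway counts under these settings were added after seeing the data. The cause of these differences was not tested. In the covariate fit the mesothelial mean separates both C and T from T+WSD, and the 16 libraries hold 4 animals a group. No paired analysis was possible because the groups share no replicate numbers in the labels.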

Other observations

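The genes whose group-centred log2 CPM followed NQO1 most closely over the 24 libraries were GLCE (Pearson r = 0.91), which converts glucuronic to iduronic acid in heparan sulfate, INKA1 (0.88), the aldo-keto reductase AKR1B10 (0.87), GNA14 (0.87), a G protein alpha subunit, and TMEM178A (0.86). They were picked as the highest of all tested genes with a symbol, so these values are a description, and in the 16 libraries outside the batch they were 0.93, 0.86, 0.83, 0.89 and 0.83. AKR1B10 was the one of these genes on the list of NRF2 targets. Its levels ran from 3.71 to 237 CPM in C (median 19.4) and from 94.65 to 491 CPM in T+WSD (median 258), with overlap only through the highest control. The log2 fold change of AKR1B10, 2.17 (SE 0.95, edgeR adjusted p = 0.115), did not pass. GLCE rose in T+WSD against C by 1.16 (adjusted p = 0.0145) and GNA14 by 1.24 (adjusted p = 0.0270), while INKA1 at 0.76 (0.0678) and TMEM178A at 1.43 (0.0704) did not pass.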
